A study of Mus musculus with 9 samples.

Results

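Transcripts of 36 mouse imprinted genes were followed in mouse embryonic stem (ES) cells with and without knockdown of Max and in primordial germ cells (PGCs), with 3 arrays for each of these groups. The members were the 36 listed symbols, found on the array through the RefSeq accession of each probe. At least 1 probe was found for 34 of them, among 32450 genes or identifiers on the array. These 34 had 57 of the 39364 probes used. No probe could be named as H19 or Rian through the gene table used here, which left 13352 probes unnamed, and these genes were not analysed here. Of the 34, 31 could be tested, because at least 1 group had all 3 of its arrays well above background, and Rtl1, Zim1 and Kcnq1 could not. By the parent whose copy is known to be transcribed, 15 of the 36 genes belong to the maternally expressed class, 20 to the paternally expressed class, and Gnas produces transcripts of either class from different promoters.

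The ES cells were VV3, a male line of 129SV background with a Venus fluorescent reporter under the promoter of Vasa (Ddx4), a germ cell gene. Control cells carried a non-silencing siRNA (AllStars) and were sorted as live single cells after 3 days. Knockdown cells received siRNA against Max, the obligate partner of MYC proteins and of MGA, and only the Vasa-positive cells were sorted from them, so siRNA and gate changed at once. PGCs are the cells that later form eggs and sperm, and these were sorted for germ-cell GFP (Oct4ΔPE-GFP) from genital ridges of male E13.5 (embryonic day) embryos of MCH x C57BL6/J background. Strain and reporter thus changed together with cell type in both PGC comparisons. The design text calls the 3 samples of a group biological replicates, and the sources used here do not say whether VV3 is a single clone or whether PGCs were pooled from several embryos.

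Imprinted genes are transcribed mainly from 1 parental copy, because a differentially methylated region keeps a mark set in the egg or the sperm. Most lie in clusters in which maternally and paternally expressed genes stand side by side under a shared control region. PGCs are known to erase these marks as they enter the gonad and to set new ones later, while ES cells keep them to varying degrees in culture. Many imprinted genes act on growth of the fetus and placenta, and several are monoallelic only in placenta or brain. The arrays measured the summed RNA of both copies, so no value below shows which copy was transcribed.

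Promoter sequence from 6 places is shown because these genes share a bidirectional gap, changed most, or hold a motif. The sequences were copied from RefSeq windows on build GRCm38.p6, which run from 250 bases before to 50 bases after a gene's start. Windows were present for 29 of the 36 genes (46 windows), with a median of 12.5 CpG dinucleotides per 300 bases against 7 in all 32851 windows. The first is the whole gap between the starts of Peg3 and Usp29, a head-to-head pair of paternally expressed genes (chr7:6730420-6730582, plus strand), with its 5 CpGs in capitals. Asb4 (chr6:5383286-5383385, plus strand) and Grb10 (chr11:12037421-12037520, minus strand), both among the most changed members, are shown over the 100 bases before a start, with 2 and 12 CpGs in capitals.
Peg3-Usp29: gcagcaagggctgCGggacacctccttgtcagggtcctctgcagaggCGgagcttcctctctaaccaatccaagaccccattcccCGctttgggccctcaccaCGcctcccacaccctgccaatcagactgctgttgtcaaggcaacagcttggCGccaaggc
Asb4: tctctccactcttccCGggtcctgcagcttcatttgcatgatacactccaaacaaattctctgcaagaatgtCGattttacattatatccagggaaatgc
Grb10: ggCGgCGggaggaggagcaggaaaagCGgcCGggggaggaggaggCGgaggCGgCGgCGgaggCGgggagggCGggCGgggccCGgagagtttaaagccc
The other 3 are the members' windows with the letters CACGTG, the E-box that MAX dimers are known to bind, searched on both strands (the word is its own reverse complement) and shown in capitals. They are Igf2r (chr17:12769707-12769766, minus strand, 2 matches), Plagl1 (chr10:13090622-13090681, plus strand) and Ppp1r9a (chr6:4903119-4903148, plus strand).
Igf2r: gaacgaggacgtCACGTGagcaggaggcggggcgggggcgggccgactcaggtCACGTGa
Plagl1: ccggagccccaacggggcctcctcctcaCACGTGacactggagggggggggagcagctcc
Ppp1r9a: tggggggccccgCACGTGggccgagcggcg
These letters stood in 3 of 46 imprinted windows and in 7.15% of all windows. A match is a description of the letters and not evidence of binding. The letters TGCCGC, the word that ZFP57 is known to read in methylated control regions, stood in 10 windows of 9 members (Grb10, Igf2, Meg3, Mest, Nap1l5, Nnat, Plagl1, Snrpn and Zim1) on either strand and in 11.6% of all windows. No remaining member window held TGCCGC, which says nothing of control regions outside these 300 bases.

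Levels below are log2 signals relative to the 75th percentile of the same array (the value 0), so a level of 1 lies 2-fold above that percentile, and differences are log2 differences of group means from 1 limma fit. Between 58.2% and 67.6% of spots were well above background, and r across genes was 0.991 to 0.995 within groups, 0.966 to 0.974 between the ES cell groups and 0.866 to 0.882 between ES cells and PGCs. Max was at 2.84, 2.74 and 2.85 in control, 0.59, 0.83 and 1.13 in knockdown and 3.77, 3.65 and 3.57 in PGC arrays, so the knockdown arrays were the lowest 3 for the targeted gene. Ddx4 was at 0.44, 0.28 and 0.13 in control, 3.07, 2.95 and 2.73 in knockdown and 4.06, 3.81 and 4.12 in PGC arrays, and its reporter was the gate for the knockdown cells. The pluripotency gene Pou5f1 lay between 4.33 and 4.81 on all 9 arrays. Of 15 markers of gonadal somatic cells, 11 were well above background on all 3 PGC arrays and 11 on all 3 control arrays. In these sorted bulk samples, fewer cells of a type and less RNA per cell cannot be told apart.

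In Vasa-positive Max knockdown cells, 13 of the 31 tested imprinted genes fell relative to control ES cells and 3 rose, which is 51.6% of them against 40.1% of all 20443 genes tested. Phlda2, which restrains placental growth, fell most (-2.33, SE 0.27, adjusted p = 0.000348, or 5.03-fold), followed by Grb10, an adaptor that dampens insulin and IGF signalling (-2.12, SE 0.39, adjusted p = 0.00304), Asb4, a ubiquitin ligase adaptor (-1.93, SE 0.18, adjusted p = 0.000108) and Sgce, the dystrophin-associated epsilon-sarcoglycan (-1.23, SE 0.10, adjusted p = 6.41e-05). Rises were seen for Dio3, which inactivates thyroid hormone (1.33, SE 0.31, adjusted p = 0.00901), Magel2, a regulator of ubiquitin ligases and endosomal sorting (1.11, SE 0.21, adjusted p = 0.00382) and Mkrn3, a zinc finger ubiquitin ligase (0.61, SE 0.10, adjusted p = 0.00196).

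Of all genes tested, 18.2% were higher and 21.9% lower. At 2-fold or more, 2 imprinted genes rose and 5 fell, together 22.6% of those tested against 11.1% of all genes (6.32% higher and 4.83% lower). The median difference was -0.43, against -0.07 over all genes, and with normexp background correction it was -0.0022, against 0.24. Of 11 tested maternally expressed genes, 0 rose and 6 fell in the limma fit (median -0.51, or -0.26 over those above background on all 9 arrays and -0.34 with normexp), and at an unadjusted p under 0.05 the only rise was Cdkn1c. Of 19 paternally expressed genes, 3 rose and 6 fell (median -0.36, or 0.08 with normexp, where all genes had 0.24), and Gnas fell. The difference between the classes was not tested. Over the same comparison, 8 of 11 primitive endoderm markers fell (summed log2 level 4.84 to 5.17 in control and 3.88 to 4.42 in knockdown arrays). So did 4 of 8 trophectoderm and 6 of 9 fibroblast markers, while the trophectoderm marker Krt7 rose (0.98). Hand1 and Dcn, both among these falls, entered the test only through control, where they are high. Only 2 of the primitive endoderm markers fell past the test with spike-in scaling and 4 with normexp. The part of these markers in the fall of imprinted genes was not tested. With slide as a block, 5 members rose and 18 fell, against 21.5% and 27.6% of all genes. The added rises were Cdkn1c and Slc38a4, and the added falls were Peg3, Peg10, Dlk1, Mirg and Kcnq1ot1. With spike-in scaling 0 imprinted genes rose (2, Dio3 and Magel2, at an unadjusted p under 0.05 in limma) and 3 fell (Phlda2, Grb10 and Asb4). With normexp 0 rose (2, Magel2 and Mkrn3, unadjusted) and only Sgce fell.

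**Figure D1:**
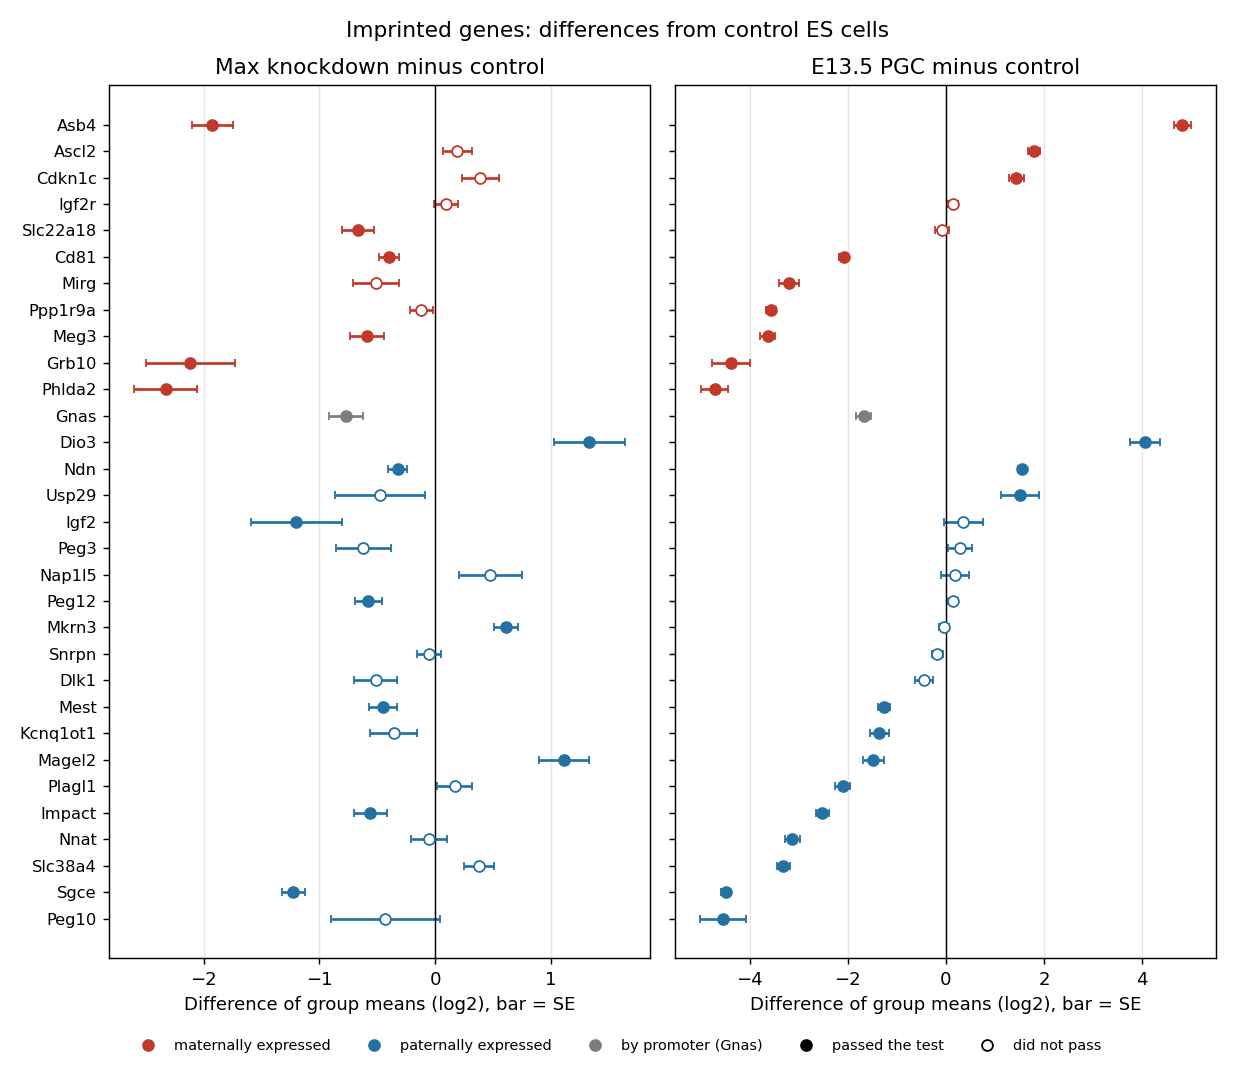
Differences (log2, bars are SE of the fit, n = 3 arrays a group) of the 31 tested imprinted genes from control ES cells, for Max knockdown on the left and E13.5 PGCs on the right, coloured by parental class, with filled points for genes past the test. In the knockdown 3 filled points lie to the right of 0 and 13 to the left (0 and 3 with spike-in scaling), and in PGCs 6 lie to the right and 16 to the left (2 and 17 with spike-in scaling).

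In E13.5 PGCs, 6 imprinted genes were higher and 16 lower than in control ES cells, which is 71.0% of those tested against 75.6% of all genes (43.2% higher and 32.4% lower). Asb4 rose most (4.81, SE 0.18, adjusted p = 7.06e-08, or 28.1-fold), with Dio3 (4.06, SE 0.31, adjusted p = 3.92e-06), Ascl2, a transcription factor of trophoblast (1.80, SE 0.12, adjusted p = 2.14e-06), the neuronal growth suppressor Ndn (1.56, SE 0.08, adjusted p = 4.34e-07), Usp29, a deubiquitinase family gene (1.51, SE 0.39, adjusted p = 0.00659) and Cdkn1c, the cell cycle inhibitor p57 (1.44, SE 0.16, adjusted p = 4.62e-05) also higher. Among the falls were Phlda2 and Peg10, a retrotransposon-derived placental gene, neither of which was well above background on any PGC array. Their falls are given as bounds, against the dimmest measurable signal of each PGC array or the probe's own signal if brighter. Phlda2 was at least 20.8-fold lower and Peg10 at least 12.4-fold lower.

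The share of imprinted genes past the test was near that of all genes, and nothing is read from it. All 22 calls were at least 2-fold, 71.0% of the tested imprinted genes against 40% of all genes (19.8% higher and 20.2% lower). The median was -1.27 against 0.18 over all genes, and the median size without sign 1.68 against 0.79. That median of the members was -0.48 with normexp, -0.60 with the mean of a gene's probes and -0.61 without a filter on dim genes, and -2.23 with spike-in scaling. Maternally expressed genes counted 3 higher and 6 lower of 11 (median -2.09), and paternally expressed genes 3 higher and 9 lower of 19 (median -0.45). The class medians moved with the settings. The maternal one was -1.06 without PGC 2, -0.77 without a filter and -1.08 over genes above background on all 9 arrays, and the paternal one was -0.86 with only these 2 groups fitted, -1.27 over genes above background on all 9 arrays and -1.42 with spike-in scaling. The difference between the classes was not tested here either. Not past the test were Dlk1, Igf2, Igf2r, Mkrn3, Nap1l5, Peg12, Peg3, Slc22a18 and Snrpn, whose differences ran from -0.45 (Dlk1) to 0.35 (Igf2). Spike-in scaling shifted the median of all genes from 0.18 to -0.79. Of the 6 rises, Asb4 (3.85) and Dio3 (3.09) then still passed, while Ascl2 (0.84), Ndn (0.59), Usp29 (0.54) and Cdkn1c (0.47) kept their sign without passing.

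Set directly against the knockdown cells, PGCs had 10 imprinted genes higher and 17 lower of 31, or 87.1% against 76.3% of all genes (44.9% higher, 31.4% lower). At 2-fold or more, 7 were higher and 13 lower, together 64.5% against 40.1% of all genes (20.5% higher and 19.7% lower). The median was -0.82, against 0.21 over all genes (-0.45 with the mean of a gene's probes, and -1.83 against -0.80 with spike-in scaling). The maternally expressed class had 4 higher and 6 lower of 11, and the paternally expressed class 6 higher and 10 lower of 19. With spike-in scaling only Asb4 and Dio3 passed as higher, and with normexp Asb4, Ascl2, Cdkn1c and Ndn. Dlk1 (0.06), Igf2r (0.05), Nap1l5 (-0.29) and Snrpn (-0.12) did not pass. The 3 comparisons share their groups, so their values for a gene are set side by side below and are not independent of each other.

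**Figure D2:**
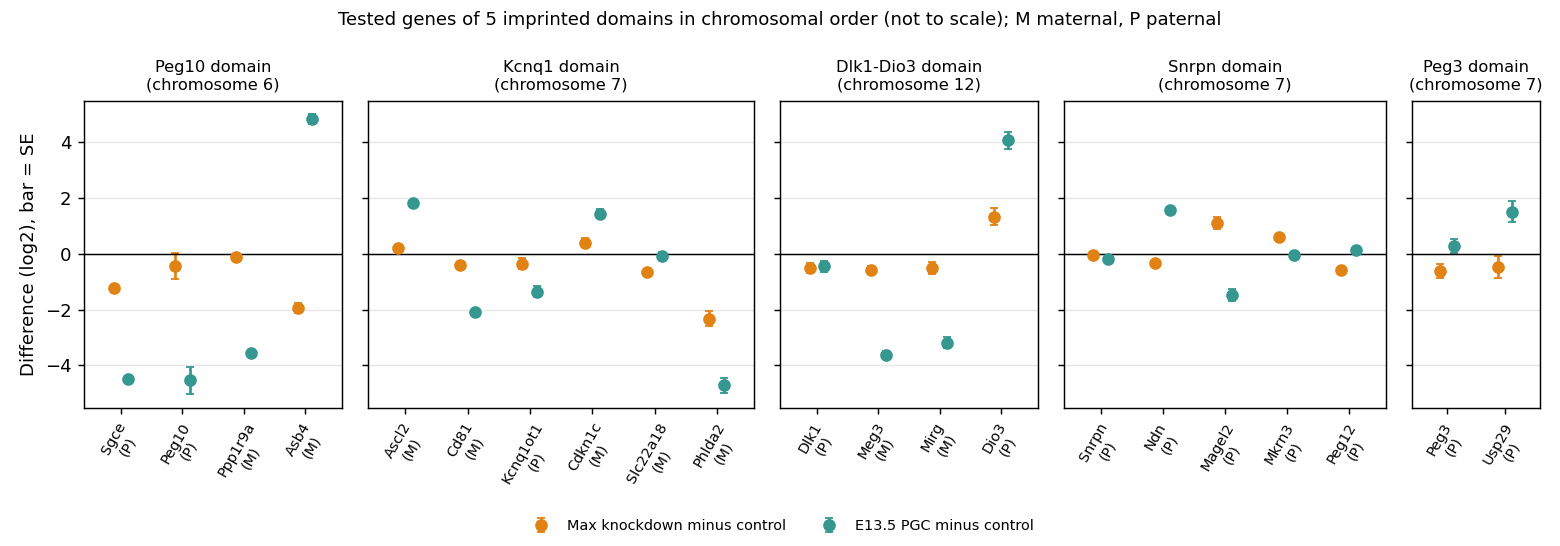
Differences from control ES cells (log2, bars are SE of the fit, n = 3 arrays a group) for the tested genes of 5 imprinted domains, drawn in chromosomal order without scale, with M for maternally and P for paternally expressed genes. Neighbours run opposite ways in the Peg10 domain, where PGCs lay from -4.54 (Peg10, dim on all PGC arrays) to 4.81 (Asb4), and in the Dlk1-Dio3 domain, from -3.63 (Meg3) to 4.06 (Dio3), with the same signs under spike-in scaling.

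The Peg10 domain on chromosome 6 held both the largest rise (Asb4) and 3 of the 16 falls of imprinted genes in PGCs. Sgce and Peg10 are paternally expressed head-to-head neighbours, and Ppp1r9a, an actin-binding scaffold of synapses, and Asb4 are maternally expressed. Sgce was at 0.89, 0.82 and 0.89 in control, -0.31, -0.43 and -0.34 in knockdown and -3.75, -3.69 and -3.43 in PGC arrays, 3 groups with no overlap. Its PGC level was 22.4-fold below control (-4.49, SE 0.10, adjusted p = 1.01e-08) and 9.59-fold below knockdown (-3.26, SE 0.10, adjusted p = 3.11e-08). Its neighbour Peg10 was at -1.68, -1.73 and -1.20 in control, -2.0, -2.18 and -1.73 in knockdown and -6.04, -7.21 and -4.98 in PGC arrays. The ES cell groups did not overlap, yet the knockdown difference did not pass (-0.43, SE 0.47, adjusted p = 0.509; with slide as a block adjusted p = 0.00902), and PGCs were at least 9.16-fold below knockdown cells. Ppp1r9a was at 1.80, 1.66 and 1.74 in control, 1.48, 1.59 and 1.78 in knockdown and -1.86, -1.88 and -1.73 in PGC arrays. Its ES cell groups overlapped (-0.12, SE 0.10, adjusted p = 0.378), and PGCs lay 11.8-fold below control (-3.56, SE 0.10, adjusted p = 1.97e-08), while a second, dimmer probe gave -1.42 for PGCs.

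Asb4 ran the other way. Its levels were -3.34, -3.30 and -3.59 in control and -5.10, -5.14 and -5.77 in knockdown arrays, where it was well above background on 1 of 3, and 1.38, 1.47 and 1.38 in PGC arrays. PGCs thus stood above knockdown cells by 6.74 (SE 0.18, adjusted p = 1.75e-08), the widest separation among the tested imprinted genes. A second Asb4 probe gave 0.02 for the knockdown (adjusted p = 0.962) and 2.41 for PGCs against control (adjusted p = 3.46e-05). The knockdown fall of Asb4 therefore rests on 1 of its 2 probes, whereas the PGC rise passed on both. With normexp its knockdown value was 0.35.

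The Kcnq1 domain on chromosome 7 has a paternally expressed antisense RNA, Kcnq1ot1, among maternally expressed genes. Phlda2 was at -1.19, -0.52 and -0.60 in control, -3.37, -2.87 and -3.07 in knockdown and -5.70, -5.83 and -4.92 in PGC arrays, and no arrays of the 3 groups overlapped. Against knockdown cells, PGCs were at least 4.13-fold lower. Cdkn1c, at 1.27, 1.48 and 1.83 in control, 1.81, 1.77 and 2.18 in knockdown and 2.93, 2.95 and 3.01 in PGC arrays, was highest in PGCs, and its ES cell groups overlapped (0.39, SE 0.16, adjusted p = 0.0855). It differed from knockdown by 1.05 (SE 0.16, adjusted p = 0.00034), and with spike-in scaling by 0.03, which did not pass. Ascl2 was at 0.96, 1.25 and 1.21 in control, 1.27, 1.53 and 1.20 in knockdown and 2.82, 3.05 and 2.96 in PGC arrays, again highest in PGCs with overlapping ES cell groups.

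Cd81, a tetraspanin of the cell surface, was at 4.28, 4.22 and 4.33 in control, 3.91, 3.83 and 3.91 in knockdown and 2.13, 2.33 and 2.12 in PGC arrays. The groups stepped down in that order, with differences from control of -0.40 (SE 0.09, adjusted p = 0.00712) for the knockdown and -2.09 (SE 0.09, adjusted p = 1.28e-07) for PGCs. Kcnq1ot1 was at -0.27, -0.60 and -0.11 in control, -0.89, -0.77 and -0.41 in knockdown and -1.96, -1.33 and -1.76 in PGC arrays, lower in PGCs (-1.35, SE 0.20, adjusted p = 0.00028), with the ES cell groups overlapping (-0.36, SE 0.20, adjusted p = 0.193). The transporter gene Slc22a18 fell in the knockdown (-0.67, SE 0.14, adjusted p = 0.00559) and did not differ past the test between PGCs and control (-0.08, SE 0.14, adjusted p = 0.595). Kcnq1, a potassium channel subunit, stayed dim on all 9 arrays. Along this domain, genes of 1 parental class thus moved in both directions in PGCs: Ascl2 and Cdkn1c passed as higher (with spike-in scaling 0.84 and 0.47, not passing), and Cd81 and Phlda2 as lower.

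**Figure D3:**
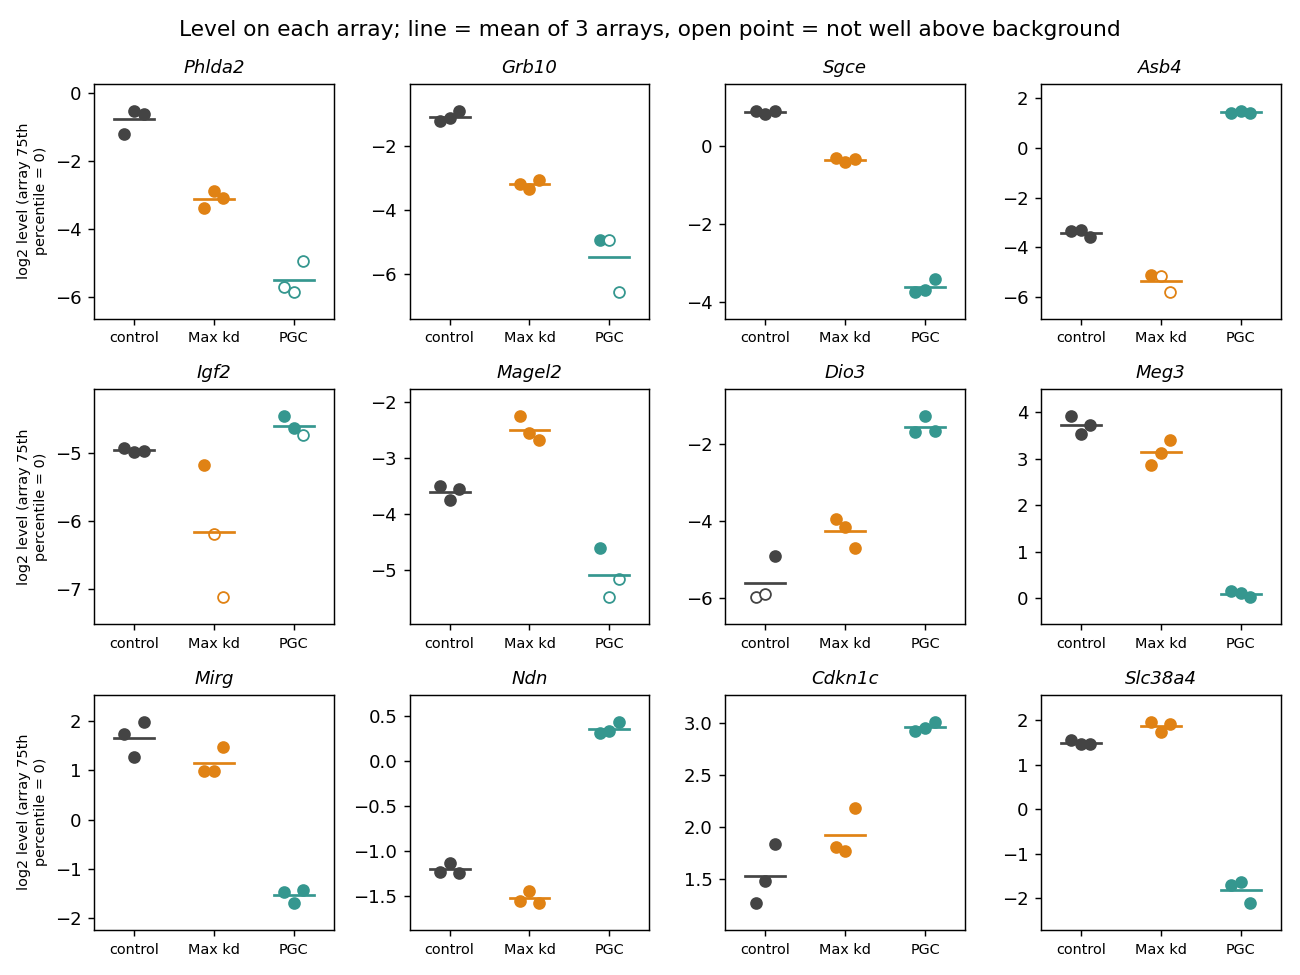
Levels (log2, the 75th percentile of the array is 0) of 12 imprinted genes on each of the 9 arrays, with lines at the mean of 3 arrays and open points where the gene was not well above background. Phlda2, Grb10 and Sgce step down from control to knockdown to PGC arrays, while Asb4 lies between 1.38 and 1.47 in PGCs and at -3.30 or below on all ES cell arrays.

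In the Dlk1-Dio3 domain on chromosome 12, the maternally expressed noncoding RNAs Meg3 and Mirg were lower in PGCs than in ES cells and the paternally expressed Dio3 was higher. Meg3 was at 3.91, 3.54 and 3.73 in control, 2.87, 3.13 and 3.41 in knockdown and 0.16, 0.11 and 0.02 in PGC arrays, which left PGCs 12.4-fold below control (-3.63, SE 0.15, adjusted p = 1.21e-07). Mirg, which hosts microRNAs, was at 1.73, 1.27 and 1.99 in control, 1.0, 0.99 and 1.47 in knockdown and -1.47, -1.69 and -1.43 in PGC arrays (-3.19, SE 0.20, adjusted p = 1.29e-06 for PGCs against control). Both thus lay lowest on the PGC arrays. Meg3 also fell in the knockdown (-0.59, SE 0.15, adjusted p = 0.0137), but not past the test without control 1 (-0.50, adjusted p = 0.0502) or on its other probes (-1.13, adjusted p = 0.0567, and -0.37, adjusted p = 0.252). Mirg's ES cell groups overlapped (-0.51, SE 0.20, adjusted p = 0.0754).

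Dio3 was at -5.98, -5.91 and -4.91 in control, -3.94, -4.15 and -4.71 in knockdown and -1.69, -1.27 and -1.66 in PGC arrays, and of the control arrays only number 3 was well above background. The knockdown arrays lay above the control arrays, narrowly so for knockdown 4 and control 3, which shared a slide. Within slides the knockdown difference was 1.90 on the slide of control 1 and 2 and 0.20 on that of control 3. PGCs exceeded knockdown cells by 2.73 (SE 0.31, adjusted p = 4.87e-05). Dlk1, a transmembrane inhibitor of adipocyte differentiation, lay just outside the threshold in both comparisons with control (-0.52, SE 0.19, adjusted p = 0.057 in the knockdown and -0.45, SE 0.19, adjusted p = 0.054 in PGCs). With a block it passed in each. In the knockdown this was with slide (adjusted p = 0.00614) or replicate number (-0.64, adjusted p = 0.0399), a block in which knockdown 4 drops out. In PGCs it was with slide as a random block (-0.49, adjusted p = 0.0365) or replicate number (adjusted p = 0.0322). A dimmer Dlk1 probe passed in both, at -0.69 (adjusted p = 0.0328) and -0.75 (adjusted p = 0.0113). Rtl1, a retrotransposon-derived gene, was well above background on knockdown 4 (-3.22) and PGC 1 (-4.65) alone.

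Of 5 paternally expressed genes of the Snrpn domain on chromosome 7, 2 rose and 2 fell in the knockdown, where 18.2% of all genes rose and 21.9% fell. With spike-in scaling 0 paternally expressed genes passed in either direction there, and with normexp 1 fell (Sgce, of another domain) and 0 rose. Magel2 was at -3.50, -3.75 and -3.56 in control, -2.25, -2.55 and -2.67 in knockdown and -4.61, -5.49 and -5.16 in PGC arrays, above control in the knockdown and below it in PGCs, where it was well above background on 1 array. PGCs lay 6.04-fold below knockdown cells (-2.60, SE 0.21, adjusted p = 6.9e-06). Ndn showed the opposite order, at -1.23, -1.13 and -1.24 in control, -1.55, -1.44 and -1.57 in knockdown and 0.31, 0.33 and 0.43 in PGC arrays. Its knockdown difference of -0.32 (SE 0.08, adjusted p = 0.0136) was not past the test without control 2 (adjusted p = 0.0571) and was 0.051 with normexp, whereas PGCs exceeded knockdown cells by 1.88 (SE 0.08, adjusted p = 1.73e-07), or 0.87 and not past the test with spike-in scaling.

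Mkrn3 rose in the knockdown and did not differ past the test between PGCs and control (-0.04, SE 0.10, adjusted p = 0.735), with a second probe giving 0.59 in the knockdown (adjusted p = 0.00241). Peg12, which encodes a GSK3-binding protein, fell in the knockdown (-0.58, SE 0.12, adjusted p = 0.00544, but 0.10 with normexp) and lay at 0.14 (SE 0.12, adjusted p = 0.324) in PGCs against control. A second, dimmer Peg12 probe did not pass in the knockdown (-0.33, adjusted p = 0.0886). Snrpn, a splicing protein gene, differed past the test in no comparison on the probe used (-0.05, SE 0.10, adjusted p = 0.719 in the knockdown). A dim Snrpn probe gave 0.86 in the knockdown (adjusted p = 0.00371) and -1.31 for PGCs against knockdown (adjusted p = 9.55e-05), and another bright probe did not pass in any.

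Of the Peg3 domain, whose shared promoter gap is printed above, Usp29 was at -3.75, -3.90 and -4.33 in control, -4.93, -3.42 and -5.06 in knockdown and -2.56, -2.43 and -2.46 in PGC arrays. The PGC arrays were the highest 3, and the knockdown arrays spread to both sides of the control range (-0.48, SE 0.39, adjusted p = 0.365). Leaving out knockdown 2, the highest of them, gave -1.0 for the knockdown (adjusted p = 0.00413). Peg3, a zinc finger protein gene that starts in the opposite direction, was lower in the knockdown without passing (-0.62, SE 0.24, adjusted p = 0.0716), and its second probe passed (-0.69, adjusted p = 0.00306). Without knockdown 4 the first probe passed as well (-0.88, adjusted p = 0.0113). PGCs exceeded knockdown cells in Peg3 by 0.90 (SE 0.24, adjusted p = 0.00786), which was -0.11 with spike-in scaling. The maternally expressed zinc finger gene Zim1 was well above background on 2 of 3 PGC arrays and on no ES cell array.

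Genes of the insulin-like growth factor axis differed from each other. Grb10 was at -1.22, -1.12 and -0.90 in control, -3.17, -3.35 and -3.06 in knockdown and -4.92, -4.92 and -6.54 in PGC arrays, well above background on 1 PGC array and without overlap between groups. PGCs lay 20.8-fold below control (-4.38, SE 0.39, adjusted p = 1.04e-05). The growth factor gene Igf2 lay close to the background, at -4.94, -4.99 and -4.97 in control, -5.18, -6.19 and -7.13 in knockdown and -4.46, -4.63 and -4.74 in PGC arrays. It was well above background on 3 control, 1 knockdown and 2 PGC arrays. Igf2 thus entered the test only through control, the higher group in the knockdown comparison. Its knockdown difference of -1.20 (SE 0.40, adjusted p = 0.0409) was -0.72 within the slide of control 1 and 2 and -2.15 within that of control 3. Leaving out any single array except knockdown 1 raised its adjusted p above 0.05 (from 0.0565 to 0.0957), and without knockdown 4 it was -0.72. PGCs exceeded knockdown cells in Igf2 by 1.55 (SE 0.40, adjusted p = 0.00632). Normexp turned both values without passing, to 0.82 in the knockdown and -0.53 for PGCs against knockdown, and with spike-in scaling neither passed (-1.16 and 0.54). Igf2r, the receptor that clears IGF2 and carries 2 E-boxes in the window printed above, lay between 0.05 and 0.14 in all 3 comparisons and passed in none.

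Of 9 tested genes placed in a domain with no other member, 7 were lower in PGCs than in control and 0 higher. Of all genes, 32.4% were lower and 43.2% higher. The grouping used only the 36 members and does not place these genes outside imprinted clusters. Nnat, a small membrane protein gene of neurons, was at 0.14, 0.40 and 0.38 in control, -0.08, 0.41 and 0.44 in knockdown and -2.73, -2.96 and -2.77 in PGC arrays (-3.13, SE 0.15, adjusted p = 2.92e-07 for PGCs against control). Slc38a4, an amino acid transporter, was at 1.55, 1.46 and 1.47 in control, 1.97, 1.73 and 1.91 in knockdown and -1.71, -1.64 and -2.11 in PGC arrays (-3.31, SE 0.13, adjusted p = 1.08e-07). Its knockdown arrays lay above the control arrays, and that difference stood just outside the threshold (0.38, SE 0.13, adjusted p = 0.0501). Impact, a regulator of translational stress signalling, was at 2.66, 2.65 and 2.88 in control, 2.16, 1.99 and 2.36 in knockdown and 0.32, -0.03 and 0.36 in PGC arrays. It fell in both comparisons with control, with differences of -0.56 (SE 0.14, adjusted p = 0.0131) for the knockdown and -2.51 (SE 0.14, adjusted p = 6.09e-07) for PGCs.

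Plagl1, a zinc finger transcription factor, was at 0.52, 0.89 and 0.36 in control, 0.60, 0.96 and 0.73 in knockdown and -1.43, -1.48 and -1.62 in PGC arrays. PGCs differed from control by -2.10 (SE 0.15, adjusted p = 3.04e-06) on this probe and by -2.23 on a second bright one, while 2 dim Plagl1 probes gave 0.29 (adjusted p = 0.0636) and 0.95 (adjusted p = 0.000262). Mest, a hydrolase family gene of mesoderm, was at 2.27, 2.75 and 2.52 in control, 2.10, 2.02 and 2.08 in knockdown and 1.24, 1.32 and 1.19 in PGC arrays. Its knockdown difference of -0.45 (SE 0.12, adjusted p = 0.0174) was not past the test without control 2 (-0.33, adjusted p = 0.0528) or knockdown 2 (-0.43, adjusted p = 0.056). Its PGC difference was -1.27 (SE 0.12, adjusted p = 1.6e-05). Other Mest probes passed in the knockdown, at -0.37 (adjusted p = 0.0185) and -0.42 (adjusted p = 0.00566). In PGCs against control they passed at less than 2-fold, at -0.72 (adjusted p = 0.000181) and -0.60 (adjusted p = 0.000252). Gnas, which encodes a stimulatory G protein subunit, was at 4.05, 4.05 and 3.95 in control, 3.19, 3.27 and 3.29 in knockdown and 2.52, 2.52 and 1.98 in PGC arrays (-0.77, SE 0.15, adjusted p = 0.00359 for the knockdown, and -1.68, SE 0.15, adjusted p = 9.37e-06 for PGCs). A dim Gnas probe gave -0.15 (adjusted p = 0.734) and 0.23 (adjusted p = 0.514) for the same comparisons. Nap1l5, a nucleosome assembly protein family gene, passed in none (0.48, SE 0.28, adjusted p = 0.205 in the knockdown).

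The 3 genes with CACGTG in a window were Igf2r, Plagl1 and Ppp1r9a, at 0.09, 0.17 and -0.12 in the knockdown, none past the test. Grb10 (12 CpGs in the 100 bases printed above) and Asb4 (2 CpGs) both fell in the knockdown, Asb4 on 1 of its 2 probes, and in PGCs they lay at -4.38 and 4.81. These genes were shown for their large changes, so they cannot show a relation of CpG count to direction, which was not tested.

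A further list held 40 imprinted genes outside the 36. Of 30 tested, 5 rose and 8 fell in the knockdown (median -0.09), which is 43.3% against 40.1% of all genes. With spike-in scaling 0 rose and 0 fell in limma (1 and 3 at an unadjusted p under 0.05), and likewise with normexp (3 and 2 unadjusted). In PGCs against control 16 were higher and 8 lower, or 80% against 75.6% of all genes (median 0.40, against -1.27 for the 31 members and 0.18 for all genes). With spike-in scaling that median was -0.56, with 3 higher and 10 lower, against -2.23 for the members and -0.79 for all genes. Against knockdown cells, 17 of the further genes were higher and 9 lower (3 and 9 with spike-in scaling), or 86.7% against 76.3% of all genes. At 2-fold or more, the further list had 13.3% in the knockdown (11.1% of all genes) and 46.7% in PGCs against control (40%). In PGCs against knockdown it had 50% (40.1%). Its median size without sign in PGCs against control was 0.85, against 1.68 for the members and 0.79 for all genes. The strongest tests in the knockdown were for Atp10a, a phospholipid flippase (-1.55, SE 0.15, adjusted p = 0.000127), the lactonase gene Pon2 (-1.27, SE 0.13, adjusted p = 0.000178), Sfmbt2, a Polycomb group gene (-1.15, SE 0.16, adjusted p = 0.000713), and Cobl, an actin nucleator (0.89, SE 0.12, adjusted p = 0.000757). With normexp Atp10a was at 0.20 and Pon2 at 0.47. In PGCs against control they were for Cobl (-4.77, SE 0.12, adjusted p = 1.56e-08), the matricellular protein gene Smoc1 (2.90, SE 0.12, adjusted p = 1.14e-07), Tnfrsf23, a decoy death receptor (at least 9.46-fold lower), and Atp10a (3.25, SE 0.15, adjusted p = 1.99e-07). The same 4 genes led in PGCs against knockdown, from -5.66 (Cobl) to 4.80 (Atp10a).

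Regulators that set, read or erase imprints were followed as a list of 22, with 21 tested. In the knockdown 6 rose and 3 fell, or 42.9% against 40.1% of all genes (2 and 0 with spike-in scaling in limma, or 4 and 0 at an unadjusted p under 0.05). The strongest were the germ line paralogue of CTCF, Ctcfl (5.90, SE 0.33, adjusted p = 1.19e-05), Dppa3, which protects marks in the zygote (2.29, SE 0.14, adjusted p = 1.83e-05), the chromatin protein gene Arid4a (1.0, SE 0.17, adjusted p = 0.00223) and Trim28, the corepressor recruited by ZFP57 (0.45, SE 0.09, adjusted p = 0.00493). Ctcfl and Dppa3 passed with spike-in scaling and with normexp, and Arid4a and Trim28 with neither. In PGCs against control 9 were higher and 11 lower (1 and 11 with spike-in scaling), or 95.2% against 75.6% of all genes, with Dppa3 (8.35, SE 0.14, adjusted p = 3.87e-09), the de novo methyltransferases Dnmt3b (-3.05, SE 0.08, adjusted p = 1.65e-08) and Dnmt3a (-1.78, SE 0.09, adjusted p = 2.71e-07), and Uhrf1, which guides maintenance methylation (-1.99, SE 0.10, adjusted p = 3.51e-07), first by test. Against knockdown cells, 7 were higher and 10 lower in PGCs (1 and 13 with spike-in scaling), or 81.0% against 76.3% of all genes. Ctcfl there was at -6.94 (SE 0.33, adjusted p = 2.95e-07), with levels of 2.0, 2.0 and 2.28 in knockdown and -4.68, -5.48 and -4.38 in PGC arrays. Dppa3 (6.06), Dnmt3b (-2.74) and Uhrf1 (-1.78) completed the leading 4.

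Of 13 gonadal somatic markers tested, 7 were higher in PGCs than in control (43.2% of all genes were) and 2 lower, Pdgfra (-2.56) and Wt1 (-1.0), while Cyp17a1, Gata4, Nr2f2 and Sox9 did not pass. Amh and Hsd3b1, both among the 7, entered the test only through the PGC group, where they are high. With spike-in scaling 4 of the markers were higher and 3 lower, and over genes above background on all 9 arrays 4 were higher and 1 lower. Their summed log2 level was 2.26 to 2.44 in control, 2.06 to 2.18 in knockdown and 2.55 to 3.42 in PGC arrays, and Amh, a Sertoli cell hormone gene, was dim on all ES cell arrays and stood at -2.90, -2.37 and -3.39 in PGC arrays. Sox9, which marks the same cells, was at -4.27, -3.54 and -4.73 there and at -4.27, -4.09 and -4.37 in control arrays (0.06, SE 0.29, adjusted p = 0.857), and no marker of the list was dim on all 3 PGC arrays. Trophectoderm markers were lower in PGCs than in control for 8 of 8 tested, and primitive endoderm markers for 9 of 11, against 32.4% of all genes. Fibroblast markers were lower for 7 of 9, with Col3a1 and Fn1 higher. Among the lower markers, Hand1, Gata3, Sox17 and Dcn entered the test only through control, where they are high. The part of these cell types in the PGC values of the imprinted genes was not tested.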

How the data were processed

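RNA of the 9 samples (100 ng each) was labelled with Cy3 and hybridised to 1-colour Agilent arrays, per the labels' protocols. The scanner files hold spot intensity from Feature Extraction 10.7.3.1, background-subtracted and detrended, per the file headers, and the array design names build mm9. The deposited value table holds log2 values of unstated scale and centring, which ran in the same direction as the scanner values and matched them at r of 0.99994 or above once those were set to the array's 75th percentile and the probe's median. Its column medians were -0.02, -0.07 and 0 in control, -0.12, 0 and 0 in knockdown and 0, 0.34 and 0.39 in PGC arrays, and whether further steps were applied is unknown.

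Signals were averaged over the spots of each probe, and the 75th percentile of the array was subtracted on the log2 scale. Of 39429 probes, 65 with an outlier flag were left out, and no spot was saturated. Through RefSeq accessions (table of GRCm38.p6, used for names and domain order), 26012 probes were named and 13352 were not. The probe with the highest mean stood for a gene, and 17 members had several. Tested were genes with at least 1 group well above background on its 3 arrays. The groups were fitted together with limma 3.58.1 (R 4.3.3), and p-values were adjusted by Benjamini-Hochberg over 20443 genes at a threshold of 0.05. The fit was also run on simulated data with independent noise. Those data had no slide or replicate structure, so they cannot show how the fit deals with either. For 1 gene alone, permuting 3 arrays against 3 exactly gives no p under 0.1, and limma borrows the spread from other genes. The number of arrays limits the precision.

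Every member was named; values of all arrays are printed for members past the test and 2-fold in any comparison, and up to 4 genes with the smallest adjusted p for each of the 2 further lists. Members and lists were chosen with earlier results of these data known. The slide, from the headers, was taken as a batch: slide 1 held control 1 and 2 with knockdown 1 and 2, slide 2 held control 3 with knockdown 4, and PGCs lay on slides 3 and 4, so PGC and slide cannot be told apart and slide was a random block there. The sources used here do not say what a replicate number stands for. Alternatives were quantile normalization, spike-in scaling, normexp background correction (offset 50, on median signals), other dimness filters, the mean of a gene's probes, each probe by itself, the deposited table, fits of the 2 groups compared, leaving out each array, and replicate or slide as a block.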

Additional observations from a re-analysis of the deposited data

How the results depend on the processing

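Among 65 called values of imprinted genes, quantile normalization, the fit of only the groups compared and no filter each left 1 not past the threshold and reversed none, and the deposited table changed none. Spike-in scaling rests on 6 of 10 probes, and each array's 75th percentile relative to them differed by slide (-1.70 to -1.88 on slide 1, -2.76 and -2.96 on slide 2). It gave 997 genes called in the knockdown instead of 8205 (73.6% higher instead of 45.3%), with 0 imprinted genes higher and 3 lower. For PGCs against control it gave 8698 genes instead of 15451 (13.3% higher instead of 57.2%) and 2 imprinted genes higher, and against knockdown 8497 instead of 15593 (11.4% instead of 58.8%) and 2 imprinted genes higher. The median of all genes moved to -0.79 and -0.80 in these. It reversed PGCs against knockdown for Peg3 (-0.11), Peg12 (-0.30) and Slc22a18 (-0.43). Normexp called 882, 6012 and 7189 genes in the knockdown, PGC against control and PGC against knockdown comparisons, with 63.8% higher and a median of 0.24 in the knockdown, and with 0 imprinted genes higher and 1 lower in the knockdown and 4 higher in PGCs against knockdown. It turned the knockdown values of Igf2 (0.82), Peg12 (0.10), Ndn (0.051) and Asb4 (0.35), and Igf2 in PGCs against knockdown (-0.53). Without 14 spots whose local background exceeded the spot (chosen after seeing the data), it reversed none and left 1 not past the threshold. Testing only genes above background on all 9 arrays, which removes dim members, left 3 imprinted genes higher in PGCs against control and 6 against knockdown. Other probes turned Snrpn (0.86) and Asb4 (0.019) in the knockdown, Plagl1 (0.29 and 0.95) and Gnas (0.23) in PGCs against control, and Plagl1 (0.87) and Gnas (0.38; mean of its probes 0.11) in PGCs against knockdown. With slide as a block 5 imprinted genes were higher in the knockdown. Leaving out each array in turn gave 3 to 4 imprinted genes higher and 11 to 15 lower in the knockdown, 6 to 7 and 16 to 17 in PGCs against control, and 10 to 11 and 17 to 18 against knockdown. The cause of these changes was not tested.

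With the replicate number as a block, 6098 genes were called in the knockdown, with 3 imprinted genes higher and 12 lower. Number 4 occurs only in knockdown 4, so the block absorbs that array and the knockdown values rest on knockdown 1 and 2. The block also ties PGC arrays to ES cell arrays of the same number. Its changes are therefore not an effect of pairing control with knockdown arrays alone. Igf2 (adjusted p = 0.0622), Mest (0.0687), Cd81 (0.0549) and Ndn (0.0987) no longer passed, and Peg3, Dlk1 and Mirg did. For PGCs against control, Dlk1 alone changed sides with this block (0.0322) and with slide as a random block (0.0365), where 17 imprinted genes were lower. Deviations correlated at 0.372 and 0.393 between control and knockdown arrays of 1 number, which shared slide 1. Between those of different numbers on that slide they correlated at -0.027 and -0.066. Control 3 and knockdown 4, on slide 2, gave 0.508, and same-numbered ES cell and PGC arrays gave -0.03 to 0.02. On slide 1, control and knockdown arrays thus went together by number. What a number stands for is not stated, and the main fit did not pair by it, so the counts with the block are given above. Dim signal limits Igf2, Dio3, Nap1l5, Asb4 in the knockdown and Phlda2, Peg10, Grb10 and Magel2 in PGCs.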
